A study of Mus musculus with 17 samples.

Results

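10 genes that NF-κB signalling is known to control, or that decide whether a cell lives or dies, were followed in peritoneal macrophages (PMs) exposed to the HIV protein Tat. They are Bcl2a1b, Bcl2l1, Mcl1, Birc2, Birc3, Cflar, Traf1, Traf2, Bcl2l11 and Ripk3, taken by symbol from a table of transcript abundance with 21683 rows, and each symbol matched 1 row. RNA-Seq had been run on 17 libraries of PMs of C57BL/6 mice aged 8 weeks, all of which carried floxed alleles of IKKβ and shared 1 further background deletion that is not described here. In 6 libraries, IKKβF/F PMs were given PBS (F/F PBS), in 6 others PMs of the same genotype were given 100 nM Tat (F/F Tat), and in 5 the PMs came from IKKβΔMye mice and were given 100 nM Tat (ΔMye Tat). All cells were elicited with 1 mL of 3% thioglycollate, attached for 4 h and treated for 12 h. The labels place the collection 3 days after thioglycollate and the methods place it a day later. In ΔMye mice the deletion is driven by a Cre inserted at the lysozyme gene Lyz2 (LysM-Cre), which is active in macrophages and neutrophils, and the Tat was a recombinant protein. None of the 17 libraries came from PMs of ΔMye mice given PBS, so what sets the genotypes apart under Tat may have been there without it. The comparison of Tat with PBS and that of ΔMye Tat with F/F Tat share the F/F Tat libraries, so their differences are not independent.

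IKKβ is the kinase that marks the inhibitor IκB for destruction and so lets NF-κB dimers enter the nucleus and switch on their targets. In macrophages these targets include inflammatory genes and a set of survival genes that keep an activated cell from dying of the same signals. The survival genes act at different places. Bcl2a1b, Mcl1 and Bcl2l1 encode relatives of BCL2 that hold back the mitochondrial path to apoptosis, and Bcl2l11 (BIM) encodes a BH3-only protein that opposes them. Birc2 and Birc3 encode the ubiquitin ligases cIAP1 and cIAP2, and Traf1 and Traf2 the adaptors that bring these ligases to TNF receptors. Cflar encodes c-FLIP, which restrains the initiator caspase of death receptors, and Ripk3 encodes the kinase that starts necroptosis, a lytic form of cell death.

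Sequence bears on the first of these genes. Bcl2a1b (chr9:89199209-89207827, plus strand of GRCm38) lies among near-identical copies on chromosome 9, Bcl2a1a (chr9:88956900-88962419, plus strand) and Bcl2a1d (chr9:88723285-88731914, minus strand), and 88.8% of the 31-base sequences of its transcripts also occur in transcripts of another gene. The share was 72.4% with Bcl2a1d, 56.7% with Bcl2a1a and 47.3% with Gm29094, whose exons overlap those of Bcl2a1b on the same strand, so the division of reads between these rows is uncertain. Over 519 coding bases, Bcl2a1b differed from Bcl2a1d at 6 and from Bcl2a1a at 11, and Bcl2a1a and Bcl2a1d differed at 7. The start of the coding sequence is shown because 6 of its 90 bases, in capitals, differ among the copies. Not each of the 6 separates every pair of copies, and other bases that differ lie outside this stretch.
Bcl2a1b coding bases 1 to 90: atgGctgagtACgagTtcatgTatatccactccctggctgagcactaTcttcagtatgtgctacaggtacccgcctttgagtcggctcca
Bcl2a1a coding bases 1 to 90: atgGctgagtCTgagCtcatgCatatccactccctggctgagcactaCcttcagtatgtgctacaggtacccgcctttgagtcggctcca
Bcl2a1d coding bases 1 to 90: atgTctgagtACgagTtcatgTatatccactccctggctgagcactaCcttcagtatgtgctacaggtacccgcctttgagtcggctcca

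The promoters of the copies were also near-identical. In the 256 bases that the 3 windows share, from 250 bases before to 50 after the RefSeq start of each gene (GRCm38.p6), 4 aligned positions held different bases and a run of 6 bases was lacking in Bcl2a1d. These positions are in capitals, and the sequences run 5′ to 3′ on the strand of each gene.
Bcl2a1b promoter, chr9:89199023-89199322, plus strand: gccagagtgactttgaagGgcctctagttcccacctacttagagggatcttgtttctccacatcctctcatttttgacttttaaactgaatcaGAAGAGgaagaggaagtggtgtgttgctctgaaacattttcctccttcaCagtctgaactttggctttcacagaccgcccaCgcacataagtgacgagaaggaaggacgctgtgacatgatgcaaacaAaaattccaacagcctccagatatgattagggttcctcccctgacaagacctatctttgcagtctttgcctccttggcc
Bcl2a1a promoter, chr9:88956670-88956969, plus strand: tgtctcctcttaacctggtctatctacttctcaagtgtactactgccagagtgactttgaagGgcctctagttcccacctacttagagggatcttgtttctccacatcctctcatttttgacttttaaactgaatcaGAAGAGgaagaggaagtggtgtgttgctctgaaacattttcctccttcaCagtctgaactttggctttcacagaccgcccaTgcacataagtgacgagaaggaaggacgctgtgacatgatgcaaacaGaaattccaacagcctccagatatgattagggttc
Bcl2a1d promoter, chr9:88731801-88732100, minus strand: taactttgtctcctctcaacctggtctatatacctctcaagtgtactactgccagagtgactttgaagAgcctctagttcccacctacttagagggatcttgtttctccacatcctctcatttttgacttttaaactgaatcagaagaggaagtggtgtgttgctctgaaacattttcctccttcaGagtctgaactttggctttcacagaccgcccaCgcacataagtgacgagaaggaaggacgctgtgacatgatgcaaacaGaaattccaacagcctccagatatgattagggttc

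All 10 genes had a RefSeq promoter window. The consensus of the NF-κB binding site (the κB site), searched on both strands, was matched in 1 of them, the second of 3 windows of Bcl2l1, against 2581 of all 27025 genes with such a window (9.55%). The match, GGGGGTCTCC in capitals below, starts 242 bases before the RefSeq start. The window of Traf1, the gene with the highest fold with Tat among the 10, is shown beside it and holds no match.
Bcl2l1 promoter, chr2:152830668-152830967, minus strand: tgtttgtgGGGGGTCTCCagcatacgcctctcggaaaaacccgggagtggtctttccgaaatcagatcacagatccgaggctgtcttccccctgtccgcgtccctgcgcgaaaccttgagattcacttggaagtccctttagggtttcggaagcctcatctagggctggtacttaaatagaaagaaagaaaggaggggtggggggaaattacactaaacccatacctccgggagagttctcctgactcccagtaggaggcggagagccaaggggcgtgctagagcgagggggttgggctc
Traf1 promoter, chr2:34961723-34962022, minus strand: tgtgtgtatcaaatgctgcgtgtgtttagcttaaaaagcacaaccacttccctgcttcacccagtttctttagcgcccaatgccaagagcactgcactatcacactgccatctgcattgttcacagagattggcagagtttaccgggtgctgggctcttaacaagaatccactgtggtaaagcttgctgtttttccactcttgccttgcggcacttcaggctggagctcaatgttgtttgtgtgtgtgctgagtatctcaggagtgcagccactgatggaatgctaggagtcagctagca

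Ikbkb, which encodes IKKβ (chr8:22659212-22706589, minus strand), was 24.5 to 30.1 TPM (median 26.8) in F/F PBS, 21.6 to 25.4 TPM (median 22.9) in F/F Tat, and 19.9, 16.3, 15.6, 17.5 and 12.8 TPM in ΔMye Tat. The ΔMye Tat level was 0.702 of that in F/F Tat, and the groups did not overlap. Lyz2, the gene that carries the Cre, was at 0.619 of the F/F Tat level. The sources used here do not say which part of Ikbkb is floxed, and its TPM cover the whole gene. What the remaining Ikbkb TPM in ΔMye Tat reflect was not tested. Lyz2 had medians of 22597, 6969 and 4283 TPM in the 3 groups and made up most of the macrophage marker signal. All 8 macrophage markers were present in every group, with a summed level of 25800 to 26810 TPM in F/F PBS, 10310 to 10890 TPM in F/F Tat and 8019 to 8344 TPM in ΔMye Tat. The single markers did not all follow this sum. Cd14 had medians of 202.9, 838.7 and 1016 TPM in the 3 groups, and Fcgr1 and Mertk also had higher medians with Tat in F/F PMs. Adgre1, Cd68, Itgam and Csf1r had lower ones. Of the 8, only Lyz2 and Fcgr1 had a lower median in ΔMye Tat than in F/F Tat. Of the marker lists of other cells, the highest were T and innate lymphoid cells (147.2 to 174.4 TPM over all libraries, 2 to 7 of 8 markers at a mean of 1 TPM) and neutrophils (56.7 to 106 TPM, with Elane and Ngp at 0 in every group). Single genes made up most of these sums. Il7r was 141.5 to 169.7 TPM, while Cd3e, Cd3d, Cd3g, Cd4 and Cd8a did not exceed 2.43 TPM in any library. Even so, Cd3e, Cd3d, Cd3g, Cd4, Cd8a and Lck were each higher in every ΔMye Tat library than in any F/F Tat library. Cd3e was at least 1.53 TPM in ΔMye Tat and at most 0.918 TPM in F/F Tat, and Cd3g at least 1.64 and at most 0.896 TPM. Il7r and Gata3 overlapped between these 2 groups. S100a8 was 49.9 to 100.7 TPM, while S100a9 and Ly6g did not exceed 2.04 TPM. Retnlg, another neutrophil marker, was 3.28 to 7.5 TPM with PBS, and no library given Tat, of either genotype, exceeded 1.19 TPM. S100a8 went the other way, with at most 58.2 TPM under PBS and at least 61.7 TPM under Tat. Camp, of the same list, reached 3.55 TPM, and its groups overlapped. NK markers summed to 5.79 to 10.7, 35 to 39.6 and 20.2 to 27.3 TPM in the 3 groups, of which Klrk1 had medians of 1.6, 29.7 and 14.3 TPM. Klrb1c, with medians of 0.884, 0.139 and 0.353 TPM, and Ncr1, with 0.77, 0.46 and 0.96 TPM, had lower medians with Tat than with PBS in F/F PMs. Prf1, with 0.431, 1.815 and 1.566 TPM, and Gzma, with 3.445, 4.081 and 4.328 TPM, had higher ones. Eomes had 0.253, 0.255 and 0.325 TPM. The contribution of such other cells to the results was not tested, and in bulk RNA fewer cells of a type cannot be told apart from less RNA per cell.

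TPM are shares of a library. Across the 10451 genes that reached 1 TPM in 5 or more libraries, which include all 10 members, the median log2 difference was -0.65 between Tat and PBS in F/F PMs, 0.22 between the genotypes under Tat and -0.43 between ΔMye Tat and F/F PBS. A gene that kept pace with most others would therefore appear lower with Tat. Values after median-ratio scaling, which sets each library to the median ratio of its genes to an average library, are given beside those as deposited and are called scaled. The scaled medians were -0.029, 0.014 and -0.013. Genes are said to rise or fall at an adjusted p under 0.01 in limma on log2(TPM + 0.1), and to be called where the fold also exceeded 3.

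With Tat, 6 of the 10 genes rose in F/F PMs and 2 fell. The 6 were Traf1, Cflar, Bcl2a1b, Traf2, Birc3 and Mcl1, from 18.1-fold to 1.43-fold, and the 2 that fell, to 0.44 and 0.501 of the PBS level, were Ripk3 and Bcl2l11. Bcl2l1 and Birc2 did not pass the test. Of all tested genes, 17% rose and 67.6% fell. Traf1, Cflar and Bcl2a1b were called higher, and the 2 that fell did not reach 3-fold. Of all tested genes, 5.21% were called higher and 19.4% lower. The groups did not overlap for 8 of the 10, against 77.6% of tested genes. For each of these 8 the exact two-sided permutation test gave the smallest p that 6 against 6 libraries allow. That outcome follows from the lack of overlap and adds nothing to it. After scaling, 8 rose and 2 fell, against 37.1% and 38.1% of tested genes. The median log2 difference of the 10 was 0.69 as deposited and 1.32 after scaling.

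**Figure D1:**
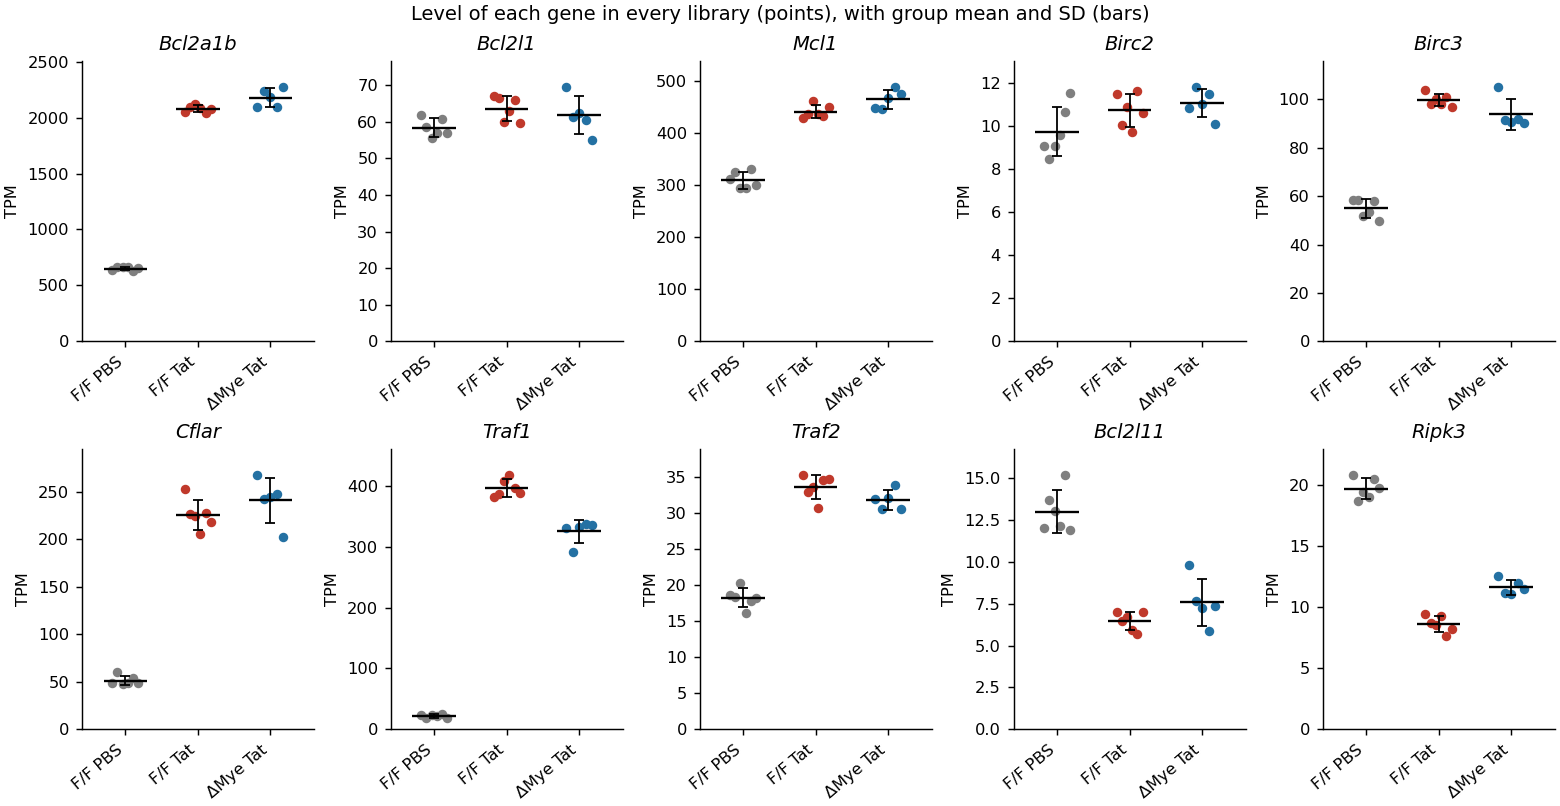
TPM of each of the 10 genes (y axis, from 0) in the 6 F/F PBS, 6 F/F Tat and 5 ΔMye Tat libraries, 1 point per library, with a line at the group mean and a bar of 1 SD. The Tat groups stand apart from F/F PBS for every gene but Bcl2l1 and Birc2, and the ΔMye Tat libraries lie near the F/F Tat libraries except for Traf1 (lower) and Ripk3 (higher).

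Bcl2a1b, an NF-κB target of myeloid cells, had the highest level of the 3 pro-survival BCL2 relatives among the 10 genes, and it rose with Tat. It was 626 to 665 TPM (median 657) in F/F PBS, 2042 to 2121 TPM (median 2086) in F/F Tat, and 2092, 2239, 2187, 2099 and 2279 TPM in ΔMye Tat. The libraries of each group lay close together, and all 11 Tat libraries were above all F/F PBS libraries. The rise was 3.2-fold, a log2 difference of 1.68 (standard error 0.025, adjusted p = 1.14e-21), and 2.31 after scaling. The copies moved by unequal amounts. Bcl2a1d rose from 250.3 ± 9.17 TPM (SD, n = 6) to 1091 ± 10.3 TPM (SD, n = 6), which is 4.36-fold. Bcl2a1a rose from 171 ± 5.99 TPM (SD, n = 6) to 349 ± 5.68 TPM (SD, n = 6), which is 2.04-fold. Bcl2a1c, a shorter relative further along the chromosome, was listed at 0 in every F/F PBS library and at no more than 0.317 TPM with Tat, and was not tested. As a share of the summed copies, Bcl2a1b took 60.7 ± 0.373% in F/F PBS and 59.1 ± 0.237% in F/F Tat, Bcl2a1d 23.4 ± 0.488% and 31 ± 0.132%, and Bcl2a1a 16 ± 0.305% and 9.92 ± 0.136% (mean ± SD, n = 6). The summed level does not depend on how reads were divided among these copies, although reads given to Gm29094 are not in it, and it went from 1072 ± 28.6 TPM to 3520.2 ± 41.9 TPM.

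Mcl1 (chr3:95658788-95663176, plus strand), which encodes a short-lived protein that holds BIM and BAK in check, rose less. Its level was 294 to 329.9 TPM (median 306) in F/F PBS and 429 to 461 TPM (median 436) in F/F Tat, with no overlap. In ΔMye Tat it was 447, 445, 467, 489 and 475 TPM. The rise with Tat was 1.43-fold, a log2 difference of 0.51 (standard error 0.034, adjusted p = 2.43e-11), and 1.15 after scaling. Bcl2l1 (chr2:152780668-152831728, minus strand), which encodes BCL-XL, was 55.6 to 62 TPM (median 57.8) in F/F PBS and 59.7 to 67 TPM (median 64.5) in F/F Tat, and 69.7, 61.2, 62.6, 60.5 and 55.2 TPM in ΔMye Tat. The 3 groups of Bcl2l1 overlapped, and its log2 difference with Tat was 0.12 (standard error 0.049, adjusted p = 0.0264). After scaling it was 0.75 (standard error 0.040, adjusted p = 1.11e-12), so its call depended on the scale.

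Bcl2l11 (chr2:128126038-128162547, plus strand), whose product BIM binds and disarms the pro-survival proteins, fell. It was 11.9 to 15.2 TPM (median 12.6) in F/F PBS, 5.66 to 7.02 TPM (median 6.57) in F/F Tat, and 9.8, 7.63, 7.22, 5.88 and 7.38 TPM in ΔMye Tat. As deposited, every Tat library lay below every F/F PBS library, while after scaling ΔMye Tat overlapped F/F PBS. The level in F/F Tat was 0.501 of that in F/F PBS, a log2 difference of -1.0 (standard error 0.099, adjusted p = 1.36e-08). After scaling the difference was -0.37 (standard error 0.090, adjusted p = 9.15e-04). As deposited, the fall of Bcl2l11 was -1.0 against a median of -0.65 over all tested genes.

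The cIAP genes, neighbours on chromosome 9, differed in response. Birc3 (chr9:7848699-7873186, minus strand) was 49.8 to 58.6 TPM (median 55.6) in F/F PBS, 96.8 to 104 TPM (median 99.2) in F/F Tat, and 105, 91.7, 90.5, 92 and 90.2 TPM in ΔMye Tat. No Tat library overlapped F/F PBS, and the rise was 1.82-fold, a log2 difference of 0.86 (standard error 0.047, adjusted p = 1.08e-12) and 1.49 after scaling. Birc2 (chr9:7818227-7837064, minus strand) was 8.48 to 11.5 TPM (median 9.33) in F/F PBS, 9.7 to 11.6 TPM (median 10.7) in F/F Tat, and 10.8, 11.8, 11, 11.5 and 10.1 TPM in ΔMye Tat. The Birc2 groups overlapped, and the log2 difference with Tat was 0.14 (standard error 0.074, adjusted p = 0.0763), or 0.77 (standard error 0.069, adjusted p = 4.21e-09) after scaling. Of the 31-base sequences of Birc3, 11.6% occur in another gene, and of those of Birc2, 2.69%. Within a library, Birc3 was 5.73 ± 0.89 times Birc2 with PBS, 9.33 ± 0.522 times with Tat and 8.52 ± 0.802 times in ΔMye PMs with Tat (mean ± SD of ratios of TPM).

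Traf1 (chr2:34941750-34961772, minus strand), an adaptor made mainly by activated immune cells that links TRAF2 and the cIAPs, had the highest fold of the 10. It was 18.2 to 25.6 TPM (median 22.6) in F/F PBS, 382 to 419 TPM (median 393) in F/F Tat, and 331, 291, 333, 337 and 335 TPM in ΔMye Tat. The 3 groups were apart from one another, with ΔMye Tat between the others. The rise with Tat was 18.1-fold, a log2 difference of 4.18 (standard error 0.067, adjusted p = 3.92e-21), and 4.81 after scaling. Traf2 (chr2:25517982-25546940, minus strand), which recruits the cIAPs to TNF receptor complexes, was 16.2 to 20.2 TPM (median 18.3) in F/F PBS, 30.7 to 35.3 TPM (median 34.1) in F/F Tat, and 32, 30.6, 32, 33.9 and 30.6 TPM in ΔMye Tat. Its libraries with and without Tat did not overlap, and its rise was 1.84-fold, a log2 difference of 0.88 (standard error 0.051, adjusted p = 2.81e-12) and 1.51 after scaling. Traf1 and Traf2 were at similar levels with PBS (1.21 ± 0.182 as the ratio of TPM within a library), and Traf1 was 11.8 ± 0.995 times Traf2 in F/F Tat and 10.2 ± 0.535 times in ΔMye Tat.

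Cflar (chr1:58711508-58758884, plus strand) was 47.4 to 60.1 TPM (median 49.1) in F/F PBS, 206 to 254 TPM (median 225) in F/F Tat, and 268, 243, 244, 248 and 203 TPM in ΔMye Tat. Its Tat libraries, of either genotype, lay far above those given PBS. The rise in F/F PMs was 4.41-fold, a log2 difference of 2.14 (standard error 0.066, adjusted p = 1.35e-16), and 2.77 after scaling. Ripk3 (chr14:55784995-55788865, minus strand) moved the other way. It was 18.7 to 20.8 TPM (median 19.6) in F/F PBS, 7.59 to 9.43 TPM (median 8.6) in F/F Tat, and 12.5, 11.1, 11.1, 12 and 11.4 TPM in ΔMye Tat, and the 3 groups did not overlap. With Tat it fell to 0.44 of the PBS level, a log2 difference of -1.18 (standard error 0.057, adjusted p = 1.85e-13), and -0.56 after scaling.

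**Figure D2:**
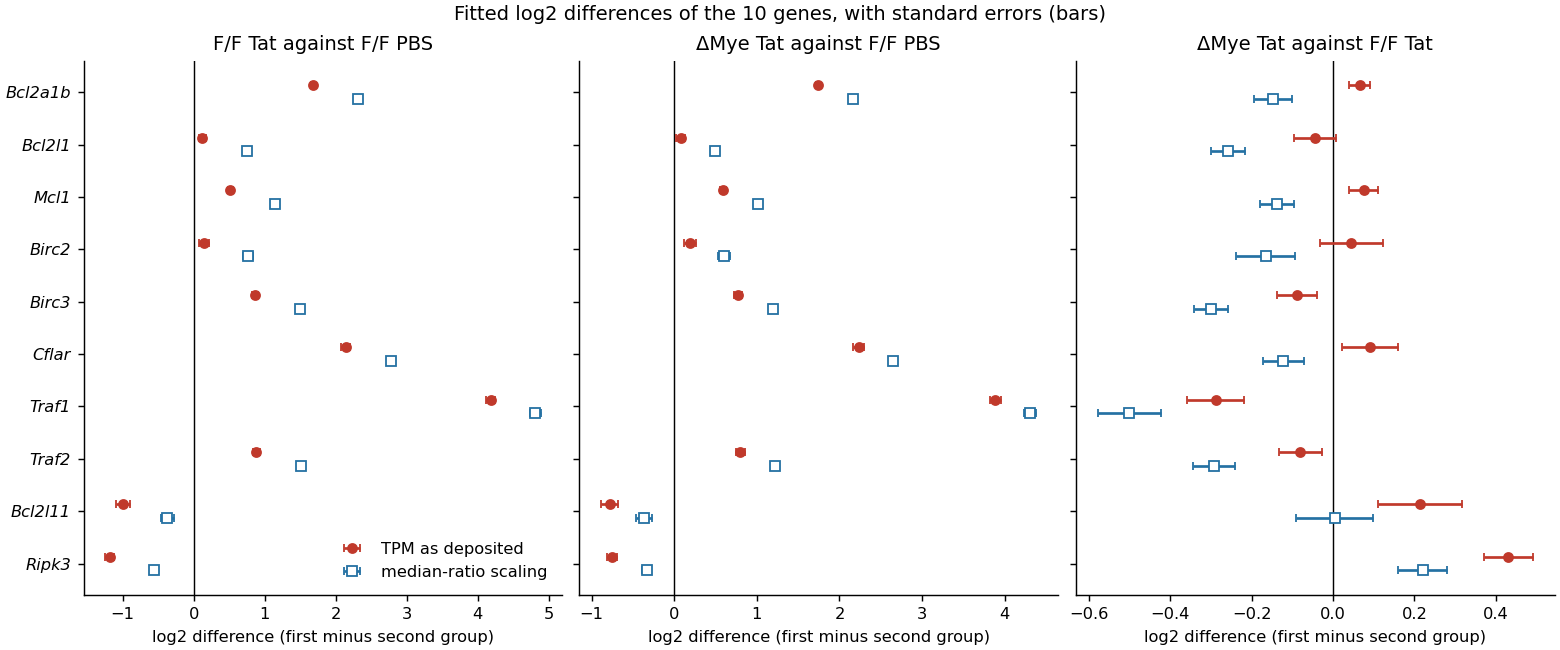
Fitted log2 difference (x axis, first minus second group, with a bar of 1 standard error) of the 10 genes in the 3 comparisons, from TPM as deposited (filled circles) and after median-ratio scaling (open squares); the x axes differ between panels. Scaling moved the Tat differences up by about the same amount for each gene, and in ΔMye Tat against F/F Tat it carried Bcl2a1b, Mcl1, Birc2 and Cflar from just above 0 to just below it.

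Between the genotypes under Tat, the differences were small. In ΔMye Tat against F/F Tat, 1 of the 10 genes rose (Ripk3) and 1 fell (Traf1), and 8 did not pass the test. Among all tested genes, 38.8% rose and 8.87% fell. No member reached 3-fold in either direction, against 0.44% called higher and 0.316% called lower of all tested genes. The groups did not overlap for 2 of the 10 and for 36.6% of tested genes. Traf1 fell to 0.819 of the F/F Tat level, a log2 difference of -0.29 (standard error 0.070, adjusted p = 0.0017) and -0.50 after scaling. Even so, it stayed 14.8-fold above F/F PBS. Ripk3 rose 1.35-fold over F/F Tat, a log2 difference of 0.43 (standard error 0.060, adjusted p = 6.67e-06). After scaling it was 0.22 (standard error 0.060, adjusted p = 0.00539), and the scaled groups overlapped.

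Of the other 8, Bcl2l11 had the largest log2 difference as deposited, 0.21 (standard error 0.10, adjusted p = 0.0835), followed by Cflar at 0.091 (standard error 0.069, adjusted p = 0.264) and Birc3 at -0.087 (standard error 0.049, adjusted p = 0.13). Bcl2a1b differed by 0.066 (standard error 0.026, adjusted p = 0.0352), Mcl1 by 0.076 (standard error 0.036, adjusted p = 0.0727) and Traf2 by -0.080 (standard error 0.053, adjusted p = 0.202). The smallest were Birc2 at 0.046 (standard error 0.078, adjusted p = 0.626) and Bcl2l1 at -0.044 (standard error 0.052, adjusted p = 0.468). That these genes missed the threshold does not show their levels to be equal, and the scale of the libraries decided several signs and calls. After scaling, 4 genes fell and 1 rose, against 18.8% and 16.4% of tested genes. The scaled falls were Traf1, Birc3 at -0.30, Traf2 at -0.29 and Bcl2l1 at -0.26. Bcl2a1b, Mcl1, Birc2 and Cflar changed sign, to -0.15, -0.14, -0.17 and -0.12, and did not pass the test on that scale.

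Set against F/F PBS, from which they differ in genotype and in treatment, the ΔMye Tat libraries showed the same counts as F/F Tat, 6 genes higher and 2 lower. The shares of all tested genes were 17.5% and 58.8% as deposited. After scaling, 8 were higher and 2 lower, against 34% and 33.7%. Cflar was 4.7-fold and Bcl2a1b 3.35-fold the F/F PBS level, Traf2 1.74-fold, Birc3 1.71-fold and Mcl1 1.5-fold. Bcl2l11 was at 0.582 and Ripk3 at 0.593 of that level.

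TPM allow for transcript length, so levels of the genes can be set in order within a group. In F/F PBS the mean level ran from Bcl2a1b (650.3 TPM) and Mcl1 (309 TPM) through Bcl2l1, Birc3, Cflar, Traf1, Ripk3, Traf2 and Bcl2l11 to Birc2 (9.72 TPM). The neighbours Bcl2l1 and Birc3, Birc3 and Cflar, Traf1 and Ripk3, and Ripk3 and Traf2 overlapped in their libraries there and were not ordered beyond their spread. In F/F Tat the order was Bcl2a1b, Mcl1, Traf1, Cflar, Birc3, Bcl2l1, Traf2, Birc2, Ripk3 and Bcl2l11, and no neighbours overlapped. Traf1 had moved from the sixth place to the third, and Ripk3 from the seventh to the ninth. ΔMye Tat had the F/F Tat order but for Ripk3 and Birc2, which changed places and overlapped.

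Ratios between genes of the same library are unaffected by library scaling. They were chosen after the values were seen and are given as descriptions, with mean ± SD over the libraries. Of the summed TPM of the pro-survival BCL2 family, which was 1457 ± 22.4 in F/F PBS and 4037 ± 49.9 in F/F Tat, the Bcl2a1 copies made up 73.5 ± 1.32% with PBS and 87.2 ± 0.124% with Tat. The share of Mcl1 went from 21.2 ± 1.11% to 10.9 ± 0.201%, and that of Bcl2l1 from 4.01 ± 0.203% to 1.58 ± 0.0964%. ΔMye Tat had the shares of F/F Tat to within their spread, with 87.1 ± 0.614% for the copies and 11 ± 0.545% for Mcl1. Mcl1 over Bcl2l11, the ratio of a guard to the protein it binds, was 23.9 ± 1.62 with PBS, 68.7 ± 5.56 with Tat and 63.3 ± 13.6 in ΔMye PMs with Tat. The PBS and Tat libraries did not overlap, and the Tat groups did.

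The ratios of the death receptor and necroptosis genes separated all 3 groups. Cflar over Casp8, the inhibitor over the caspase it restrains, was 0.882 ± 0.0395 with PBS, 1.58 ± 0.0709 with Tat and 2.77 ± 0.329 in ΔMye PMs with Tat. Casp8 rose 2.46-fold with Tat and in ΔMye Tat was at 0.611 of the F/F Tat level, while Cflar was 1.06-fold, which did not pass the test. Mlkl, the membrane-breaking substrate of RIPK3, was 2.91 ± 0.176 times Ripk3 with PBS, 52.2 ± 3.49 times with Tat and 25.6 ± 2.28 times in ΔMye PMs with Tat. Mlkl itself rose 7.84-fold with Tat, from 57.1 ± 1.44 TPM (SD, n = 6) to 448 ± 12.5 TPM (SD, n = 6), and was 296 ± 13.5 TPM (SD, n = 5) in ΔMye Tat. Ripk3 over Ripk1, the ratio of the kinases of the necrosome, was 0.662 ± 0.0564, 0.315 ± 0.0241 and 0.394 ± 0.011 in the 3 groups.

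**Figure D3:**
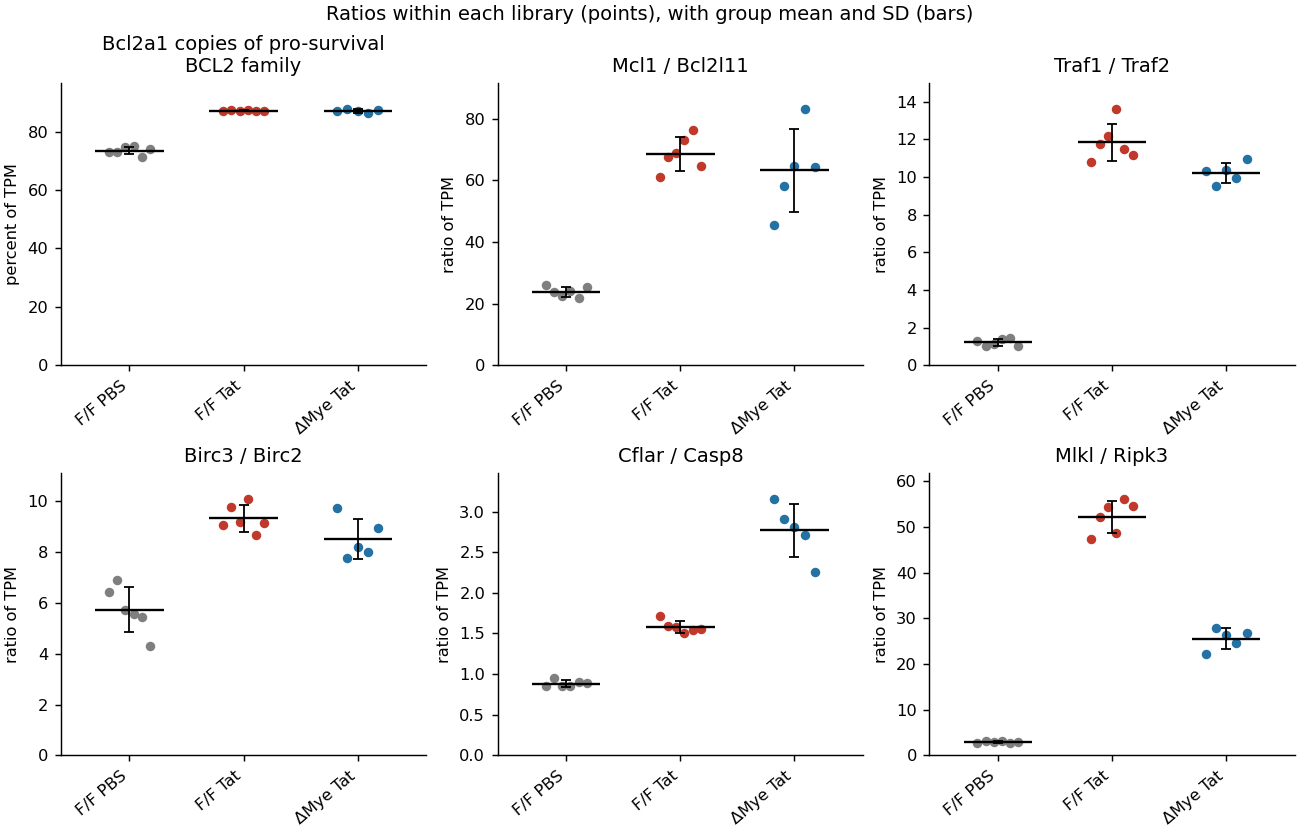
Percent or ratio of TPM within each library (y axes, from 0) for 6 quantities in F/F PBS (6 libraries), F/F Tat (6) and ΔMye Tat (5), 1 point per library, with a line at the group mean and a bar of 1 SD. Cflar over Casp8 stepped up in each group and Mlkl over Ripk3 peaked in F/F Tat, without overlap of groups, while the Bcl2a1 share and Mcl1 over Bcl2l11 overlapped between the Tat groups.

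The members were set beside the other genes of their pathways, 55 genes in 9 lists by role, of which 49 were tested, and 8 of the lists are described. With Tat, 21 of these 49 rose and 21 fell, and after scaling 32 rose and 10 fell, against the shares of all genes given above. Their median log2 difference was -0.076 as deposited and 0.56 after scaling. In ΔMye Tat against F/F Tat, 19 rose and 12 fell, and after scaling 7 rose and 17 fell. Of all tested genes, 38.8% rose and 8.87% fell in that comparison, and 16.4% and 18.8% after scaling. These shares, and those given above for Tat, are the ones to set beside the counts of each list below.

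Of 7 tested pro-survival BCL2 genes, 4 rose with Tat and 2 fell, and after scaling 6 rose and 1 fell. The 4 were Bcl2a1b, its copies Bcl2a1a and Bcl2a1d, and Mcl1. Bcl2 itself, the founder of the family, fell to 0.21 of its PBS level of 3.74 ± 0.357 TPM (SD, n = 6). Bcl2l2 was at 0.829 of its PBS level, a fall that turned into a rise after scaling (-0.27 and 0.36), and in ΔMye Tat it was 1.54-fold the F/F Tat level. Bcl2a1a, at 1.18-fold, and Bcl2, at 1.38-fold, were also higher in ΔMye Tat than in F/F Tat as deposited, but did not pass the test after scaling. On the scaled values, 1 of the 7 rose in that comparison and 2 fell. Bak1 and Bax, the effectors that open the mitochondrial outer membrane, differed. Bak1 rose 1.67-fold, from 59.3 ± 12.4 TPM (SD, n = 6) to 98.1 ± 9.2 TPM (SD, n = 6), and Bax fell to 0.607, from 403 ± 9.13 TPM (SD, n = 6) to 245 ± 11.7 TPM (SD, n = 6). After scaling, Bak1 was 1.38 and Bax -0.088 on the log2 scale, the latter no longer past the test. In ΔMye Tat, Bax was 1.21-fold the F/F Tat level as deposited and differed by 0.063 after scaling.

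All 6 tested BH3-only genes, Bcl2l11 among them, fell with Tat as deposited, with a median log2 difference of -1.13, where 67.6% of all tested genes fell and their median was -0.65. After scaling, 4 fell and 1 rose, against 38.1% and 37.1% of all tested genes. Bmf, a sensor tied to the cytoskeleton, fell to 0.12 and Bbc3 (PUMA), a target of p53, to 0.256 of the PBS level, and both also fell after scaling (-2.58 and -1.34). Bmf was low, at 1.78 ± 0.222 TPM (SD, n = 6) with PBS. Pmaip1 (NOXA) fell by 0.52 as deposited and was 0.097 after scaling. In ΔMye Tat it was 1.44-fold the F/F Tat level, and 2 of the 6 genes of this list, Pmaip1 and Bad, were higher there as deposited. Of all tested genes, 38.8% were higher in that comparison. After scaling, 1 of the 6, Pmaip1, was higher and 1 lower, against 16.4% and 18.8% of all tested genes. Among 7 IAP genes and antagonists, Birc3 rose with Tat and 2 fell, and after scaling 5 rose and 1 fell. Htra2, a mitochondrial protease that antagonises IAPs, fell to 0.277 and rose 1.54-fold in ΔMye Tat over F/F Tat, and Birc5 (survivin), a mitotic gene at 1.27 ± 0.431 TPM (SD, n = 6) with PBS, fell to 0.352, but not past the test after scaling.

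Of 8 TRAF genes and partners, 6 rose with Tat and 2 fell, and the 2 that fell did not pass the test after scaling. Beside Traf1 and Traf2 these included Tank, a regulator of TRAF signalling, at 1.95-fold, and Traf4 at 2.25-fold of a PBS level of 0.465 ± 0.127 TPM (SD, n = 6). Traf3 and Map3k14 (NIK), which with TRAF2 and the cIAPs set the non-canonical NF-κB pathway, fell to 0.752 and 0.657 as deposited. After scaling they were 0.22 and 0.0063 on the log2 scale and did not pass the test. Traf5 was 1.6-fold higher in ΔMye Tat than in F/F Tat. In death receptor signalling, 6 of 11 tested genes rose and 4 fell, or 9 and 1 after scaling. Tnfaip3, a ubiquitin editor that is both a target and a brake of NF-κB and stands in 2 of the lists, rose 8.13-fold, and in ΔMye Tat it was at 0.697 of the F/F Tat level. Fadd, the adaptor that joins Casp8 to the receptor, fell to 0.472 and was 1.37-fold higher in ΔMye Tat. Sharpin fell to 0.673, with 0.058 after scaling.

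Of 4 necroptosis genes, Mlkl and the nucleic acid sensor Zbp1 (4.23-fold) rose with Tat, and Ripk3 fell, while Ripk1 rose after scaling alone (-0.12 as deposited and 0.51 scaled). In ΔMye Tat, Mlkl was at 0.661 and Zbp1 at 0.854 of the F/F Tat level, the direction opposite to that of Ripk3. Of 6 other NF-κB survival targets, 5 rose with Tat, and after scaling all 6 rose. Ier3, an immediate early gene, rose 7.23-fold and in ΔMye Tat was at 0.474 of F/F Tat, and Tnfaip8 differed by -0.076 with Tat (0.56 scaled) and was 1.68-fold higher in ΔMye Tat. In ΔMye Tat against F/F Tat, 4 of these 6 targets fell as deposited and 4 after scaling. Of the 10 members, 1 and 4 fell, and of all tested genes 8.87% and 18.8%, and the difference between the lists was not tested.

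**Figure D4:**
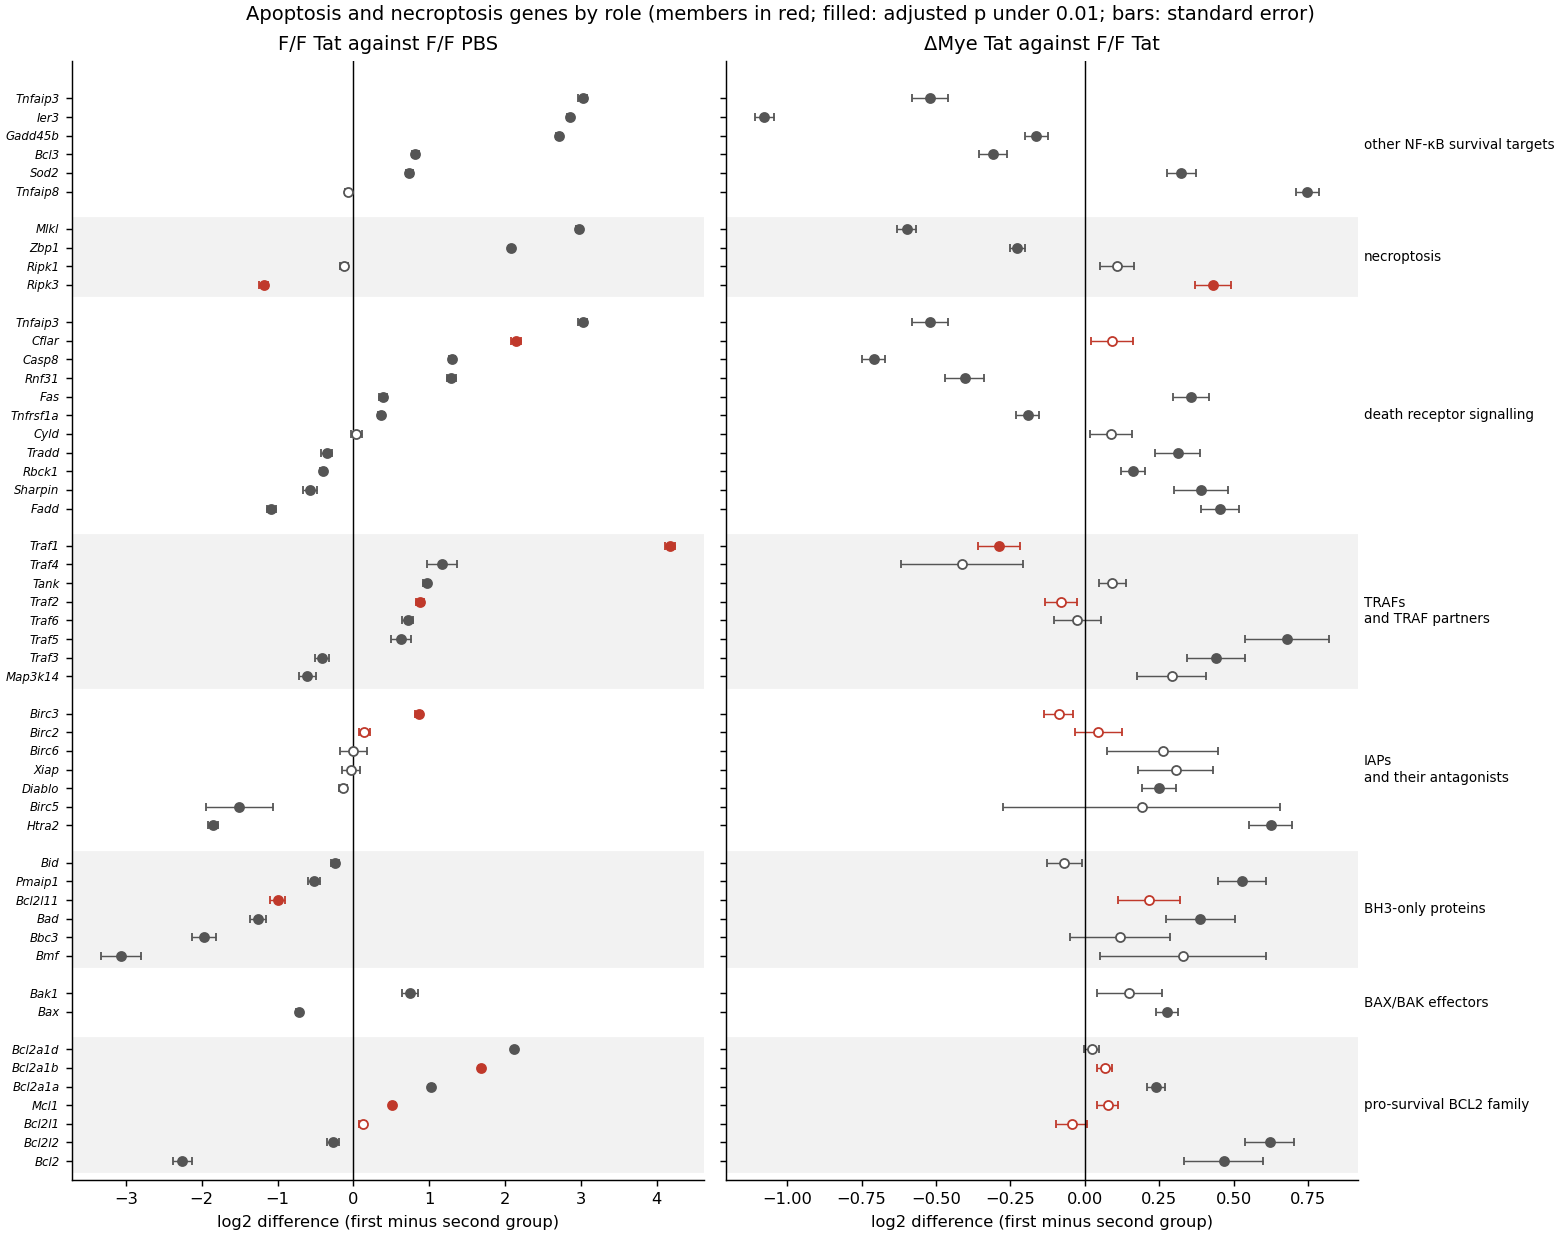
Fitted log2 difference (x axis, with a bar of 1 standard error) of each tested gene of 8 role lists in F/F Tat against F/F PBS (left) and ΔMye Tat against F/F Tat (right), from TPM as deposited; members are red, and filled circles have an adjusted p under 0.01. Traf1, Tnfaip3, Mlkl and Ier3 stand far to the right with Tat, and of these Ier3 lies farthest to the left in ΔMye Tat.

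The genes most like each member were found by Pearson correlation of log2(TPM + 0.1) over the 17 libraries. These values are descriptions over libraries that fall into 3 groups, so a gene with a like step between the groups scores high. Traf1 was most like Plaat3 (r = 0.999), Gbp3 (0.999) and Gadd45b (0.998). Cflar was most like Jak2 (r = 0.999), Tnfrsf1b (0.999) and Slc7a2 (0.998), and Bcl2a1b like Bcl2a1d (r = 0.999), Mmp13 (0.999) and Cxcl1 (0.998), the first of which is its copy. For Birc3 they were Gbp7 (r = 0.993), Trim30d (0.992) and Nlrc5 (0.991). Mcl1 ran closest to Rap1b (r = 0.987), Irf1 (0.985) and Sntb1 (0.984), and Traf2 to Plagl1 (r = 0.988), P2ry14 (0.988) and Hbegf (0.987). Bcl2l11 was closest to Rcan3 (r = 0.972) and Gstz1 (0.97), and Ripk3 to Akip1 (0.993) and 2210418O10Rik (0.992), the next being a row whose symbol a spreadsheet had turned into a date. Bcl2l1 and Birc2 had no such near likeness, with Wac (0.861), 4932438A13Rik (0.848) and Xpo6 (0.848) for the former and Rab43 (0.834), Fbrs (0.785) and Clip2 (0.778) for the latter. Among the members, Bcl2a1b and Traf1 were most alike (0.992), Bcl2l11 and Ripk3 ran together (0.932), and Traf1 and Ripk3 ran opposite (-0.942).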

How the data were processed

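RNA was sequenced from PMs in 3 groups (17 libraries). Per the study's methods, the authors ran Salmon against Ensembl transcripts of GRCm38 (the submitters' notes name mm10), and the deposited values are TPM per gene symbol, a share of transcripts corrected for length. Versions are not given in the sources used here. TPM keep no read number, so the depth is unknown and precision rests on the spread between libraries, which the study describes as mice. The authors' edgeR test needs counts and was not repeated. The table holds 21683 rows, and the 10451 that reached 1 TPM in 5 or more libraries entered limma 3.58.1 (R 4.3.3) as log2(TPM + 0.1) (trended eBayes, 3 groups in 1 fit, 14 residual degrees of freedom, Benjamini-Hochberg over all tested genes). Fold changes are on this scale and understate those of low genes. Thresholds were an adjusted p under 0.01 and, for called genes, over 3-fold, as in the study. The fit was tested on simulated data with known folds in a small set of genes. No shift of the libraries was built in, so that test cannot bear on the library scale. Tables were handled in Python 3.11.15 with pandas 2.3.3 and numpy 2.4.6, exact permutation tests were computed with numpy, and plots were drawn with matplotlib 3.10.9.

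Coordinates are from the GENCODE annotation and promoters from RefSeq, both on GRCm38. Shared 31-base sequences were counted over reference transcripts. The members and lists were chosen with earlier results of these data known. Named beside the members are the Bcl2a1 copies, Ikbkb, Lyz2, in each list the 2 highest and 2 lowest differences with Tat and the highest and lowest in ΔMye Tat against F/F Tat (adjusted p under 0.01, at least 1 TPM in the higher group), and for each member the 3 genes most correlated with it. Bad, Ripk1 and the ratios were chosen after their values were seen. Results of 1 list (beyond its part in counts over all lists and 1 library of Casp6 that stood apart), 1 correlated gene and 1 allele all mice shared are not reported here. Alternatives were pseudocounts of 0.5 and 1, no filter or 5 TPM, median-ratio scaling, quantile normalization, a fit of the compared groups only, robust eBayes with array weights, exact permutation tests, no fold threshold, the summed Bcl2a1 copies, and each library left out.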

Additional observations from a re-analysis of the deposited data

Results flagged for a closer look

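A sample was looked at again where its gap to the nearest library of its group was too large for the range of that group by Dixon's criterion, which chance exceeds in about 1 of 20 groups. Of 120 groups of libraries over 40 genes, 4 held such a library. Birc3 was 105 TPM in ΔMye Tat replicate 19 and 90.2 to 92 TPM in the other libraries of the group. Traf1 was 291 TPM in ΔMye Tat replicate 20, against 331 to 337 TPM in the others. Bax was 385 TPM in F/F PBS replicate 2 and 403 to 409 TPM in the others. Casp6 was 3.4 TPM in F/F Tat replicate 12 and 1.94 to 2.46 TPM in the others. The calls of Birc3 and Traf1 in ΔMye Tat against F/F Tat did not change without these libraries.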

How the results depend on the processing

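Of 783 alternative values of the members' log2 differences, 760 kept their direction and side of the threshold, 16 came to pass it, 1 no longer did and 6 changed direction. The settings that moved them were the scale of the libraries, but for 2 cases: with array weights Bcl2l1 rose with Tat (0.13, adjusted p = 0.00801, limma), and Birc2, without F/F PBS replicate 6, was higher in ΔMye Tat than in F/F PBS (0.24). Of the 783 values, 17 for each gene and comparison came from leaving out 1 library. Where that library lay outside the compared groups, the difference could not move. The changed filters, the fit of the compared groups only and the permutation test reuse the same group means, so their direction was fixed. The 760 therefore overstate how far direction was tried. The directions that changed were in ΔMye Tat against F/F Tat, to -0.15 (Bcl2a1b), -0.14 (Mcl1), -0.17 (Birc2) and -0.12 (Cflar) after median-ratio scaling, and to -0.18 (Birc2) and -0.041 (Bcl2l11) after quantile normalization. Bcl2a1b went the other way under quantile normalization, to 0.15 (adjusted p = 3.20e-05), and Ripk3 no longer passed the test there (0.19, adjusted p = 0.0133). The number of members that fell in ΔMye Tat against F/F Tat went from 1 to 4 with median-ratio scaling and to 3 with quantile normalization. Of all tested genes, 8.87% fell as deposited and 18.8% after median-ratio scaling, and the share under quantile normalization was not counted. Without the fold threshold, the numbers called higher and lower were 6 and 2 with Tat, 1 and 1 between genotypes, and 6 and 2 in ΔMye Tat against F/F PBS, in place of 3 and 0, 0 and 0, and 3 and 0. The share of all tested genes past the fold threshold was not counted for ΔMye Tat against F/F PBS. No paired analysis was possible because the groups share no replicate numbers. Depth is unknown for TPM, so counting error could not be set beside these values. Which scale is right for these libraries cannot be told from TPM, and the cause was not tested.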
